A study of Mus musculus with 6 samples.

Results

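The genes described here are 9 receptors, enzymes and secreted proteins by which macrophages are recognised and sorted into activation states: the scavenger and endocytic receptors Mrc1, Cd163, Msr1, Marco, Cd36 and Cd68, and the polarization genes Arg1, Retnla and Nos2. They were chosen by name, as the probes whose gene name on the array was 1 of these 9, and they made up 13 of 41174 probes and 9 of 28786 genes. The study used primary cultures of C4HD, a ductal mammary tumour of female BALB/c mice that arose under the progestin medroxyprogesterone acetate and is passaged by transplantation into mice given the same progestin. The pre-miR-16 cultures received 30 nM of a precursor of miR-16, and the pre-miR-Control cultures 30 nM of pre-miR-Control, a precursor that yields no known mammalian microRNA; RNA was taken at 48 h. There were 3 biological replicates of pre-miR-16 and 3 of pre-miR-Control, with 1 single-colour Agilent array each. Per the labels' protocols the cultures hold the epithelial fraction that sedimented from the digested tumour, and the authors repeated the sedimentation until fibroblasts were no longer seen in the supernatant; no step that selects macrophages is described.

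Macrophages take up modified lipoproteins, dying cells, microbes and free haemoglobin through scavenger receptors, a group of membrane proteins that are related by function rather than by sequence. Interleukin-4 and interleukin-13 lead mouse macrophages to the alternatively activated state, which is known by Mrc1, Arg1 and Retnla, with Cd163 as a further marker. Interferon-gamma and bacterial products lead them to the classically activated state, which is known by Nos2, and Marco is induced by bacterial products. Arg1 and Nos2 use the same substrate, arginine, which is why their ratio is often read in tumour macrophages. The transfected microRNA corresponds to mouse miR-16-5p, which RefSeq (GRCm38.p6) places in the genes Mir16-1 on chromosome 14 and Mir16-2 on chromosome 3; it is shown because it is the agent that separates the groups, with the seed in capitals.
mmu-miR-16-5p: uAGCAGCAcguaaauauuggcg

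The arrays were of like brightness, with a 75th percentile of 625 to 909 processed units and a share of 57.2% to 64.0% of spots that the scanner software marked as well above background. Levels are given below as processed signal in scanner units, or as log2 of that signal relative to the 75th percentile of the same array, and a change is the mean log2 level in pre-miR-16 cultures minus that in pre-miR-Control cultures with its standard error (SE). A gene was called where limma's test gave a Benjamini-Hochberg adjusted p under 0.05 over the 16702 genes that passed the filter on dim probes, and it then rose or fell. Of all genes tested 15.9% rose and 33.2% fell, 2658 against 5544, with a median change of -0.20; scaling on the spike-in probes instead moved the median by 0.44 and gave 3921 that rose and 858 that fell. Krt8, Krt18, Epcam and Cdh1, which define the labelled epithelium, were well above background on every array.

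Of the 9 genes, 6 passed the filter on dim probes, 4 rose (Mrc1, Msr1, Marco and Cd68), 1 fell (Arg1) and 1 was not called (Cd36). Among all genes tested 49.1% were called. Mrc1, Msr1 and Cd36 passed the filter only through the pre-miR-16 arrays, where they were high, so the count is an account of these genes and not support for a direction. Cd163, Retnla and Nos2 were not well above background in either group and have no measured change. In the same fit 16 of 19 tested macrophage marker genes and 12 of 14 fibroblast genes rose, and 12 of 14 luminal epithelial genes fell (3 of 14 with spike-in scaling). In RNA from a whole culture, more cells of a type and more RNA per cell cannot be told apart.

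**Figure D1:**
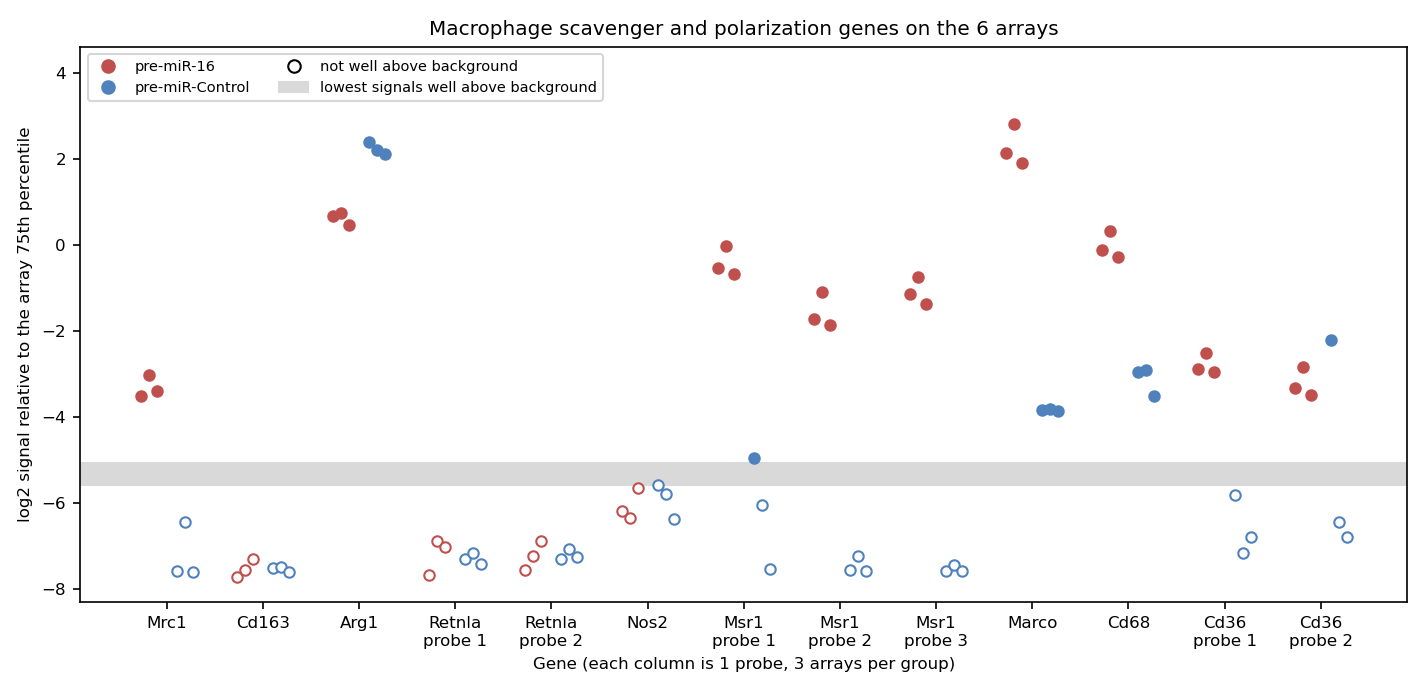
Log2 processed signal relative to the array's 75th percentile (vertical axis) at each of the 13 probes (horizontal axis), 1 point per array, pre-miR-16 in red and pre-miR-Control in blue; open points were not well above background and the grey band spans the lowest signals above background on the 6 arrays. Marco, Msr1, Cd68 and Mrc1 lie higher in the pre-miR-16 arrays, Arg1 lies lower, and 1 pre-miR-Control array stands above all others at Cd36 probe 2, the one used in the fit over genes.

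Mrc1 encodes the mannose receptor CD206, an endocytic lectin that clears glycoproteins ending in mannose. Its probe (mm7 chr2:14281098-14281158, + strand) gave 64.8, 90.8 and 85.4 units in pre-miR-16 replicates 1, 2 and 3, against 3.24, 7.41 and 3.59 units in pre-miR-Control replicates 1, 2 and 3. All pre-miR-16 arrays lay above all pre-miR-Control arrays, and none of the pre-miR-Control signals was well above background. Mrc1 was therefore at least 4.04-fold higher in pre-miR-16 cultures, taking the lowest signal that counts as above background in the controls. This bound holds for the processed signal. The adjusted p of 3.61e-04 from limma belongs to the full difference of 3.90, which rests on control signals below background, and not to the bound. Normexp background correction (a model of signal plus background) gave a change of only 0.89, still called.

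Cd163 encodes the receptor for haemoglobin bound to haptoglobin. Its probe (mm7 chr6:124312766-124312825, + strand) gave 3.49, 3.89 and 5.76 units in pre-miR-16 cultures and 3.42, 3.63 and 3.57 units in pre-miR-Control cultures. No array was well above background, so the data set no direction for this gene.

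Msr1 and Marco encode the class A scavenger receptors, trimers with a collagen-like stalk; Msr1 takes up modified low-density lipoprotein, and Marco binds bacteria and inert particles. Marco (mm7 chr1:120342087-120342147, - strand) gave 3262, 5177 and 3377 units in pre-miR-16 cultures, against 43.5, 46.1 and 47.4 units in pre-miR-Control cultures. The 2 groups did not overlap, all 6 arrays were well above background, and the pre-miR-Control arrays had an SD of only 0.03 on the log2 scale. Marco rose by 6.13 ± 0.23 (SE, n = 3 per group), a 69.8-fold difference with an adjusted p of 1.49e-05 from limma; the change was 5.98 within slide 1 and 6.66 within slide 2.

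Msr1 had 3 probes with no shared run of more than 7 bases. The brightest (mm7 chr8:38396605-38398766, - strand) gave 514, 721 and 564 units in pre-miR-16 cultures, against 20.0, 9.78 and 3.74 units in pre-miR-Control cultures. The groups did not overlap, and of the pre-miR-Control arrays only replicate 1 was well above background. Its change was 5.77 ± 0.62 (SE, n = 3 per group, adjusted p 8.71e-04 from limma), with 4.43 within slide 1 and 6.77 within slide 2, and it was 2.87 after normexp correction. A second probe (mm7 chr8:38414609-38414668, - strand) gave 225, 345 and 248 units in pre-miR-16 cultures, against 3.28, 4.33 and 3.64 units in pre-miR-Control cultures, and the remaining probe (mm7 chr8:38394471-38394530, - strand) gave 339, 440 and 351 units in pre-miR-16 cultures, against 3.25, 3.73 and 3.64 units in pre-miR-Control cultures. Both were below background on each pre-miR-Control array, and their signals in pre-miR-16 cultures were at least 13.6-fold and at least 19.0-fold higher. All 3 Msr1 probes rose in the fit over probes. Of the 23827 probes in that fit 46.6% were called, 15.2% rose and 31.4% fell; of the 9 probes of these genes in it 7 rose, 1 fell and 1 was not called.

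Cd68 encodes macrosialin, a glycoprotein of late endosomes and lysosomes that is abundant in phagocytes. Its probe (mm7 chr11:69746386-69746445, - strand) gave 680, 914 and 747 units in pre-miR-16 cultures, against 80.6, 86.2 and 61.3 units in pre-miR-Control cultures. The groups did not overlap and all 6 arrays were well above background. Cd68 rose by 3.09 ± 0.22 (SE, n = 3 per group), an 8.53-fold difference with an adjusted p of 1.61e-04 from limma, and by 2.24 after normexp correction. The change was 2.83 within slide 1 and 3.52 within slide 2.

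Mrc1, Marco and Cd68 rose together, and their promoters are shown for that reason, from 250 bases before to 50 after the start, as RefSeq gives them. The capitals mark each GAGGAA, the core that PU.1, a transcription factor of macrophages, binds, read on either strand (TTCCTC on the other), and in Cd68 also each TGANTCA, the core of AP-1 sites.
Mrc1 promoter (GRCm38.p6 chr2:14229164-14229463, + strand): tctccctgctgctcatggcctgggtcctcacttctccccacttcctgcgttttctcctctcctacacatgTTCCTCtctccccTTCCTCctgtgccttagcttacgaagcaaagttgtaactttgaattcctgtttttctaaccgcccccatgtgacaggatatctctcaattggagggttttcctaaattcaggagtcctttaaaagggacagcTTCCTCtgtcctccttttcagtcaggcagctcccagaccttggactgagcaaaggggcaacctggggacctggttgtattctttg
Marco promoter (GRCm38.p6 chr1:120504975-120505274, - strand): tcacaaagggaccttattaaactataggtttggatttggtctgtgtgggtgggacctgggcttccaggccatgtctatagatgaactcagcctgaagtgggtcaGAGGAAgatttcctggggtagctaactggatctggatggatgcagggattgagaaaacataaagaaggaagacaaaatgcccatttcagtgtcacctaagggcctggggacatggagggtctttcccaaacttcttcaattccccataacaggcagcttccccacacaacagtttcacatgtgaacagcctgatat
Cd68 promoter (GRCm38.p6 chr11:69666121-69666420, - strand): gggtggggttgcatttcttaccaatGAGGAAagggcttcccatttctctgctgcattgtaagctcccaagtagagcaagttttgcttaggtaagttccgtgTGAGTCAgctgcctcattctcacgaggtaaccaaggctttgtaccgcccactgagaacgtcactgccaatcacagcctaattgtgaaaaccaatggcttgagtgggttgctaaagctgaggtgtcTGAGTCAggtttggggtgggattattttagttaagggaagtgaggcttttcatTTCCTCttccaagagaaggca

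GAGGAA occurred 3 times in the Mrc1 window, 1 time in that of Marco and 2 times in that of Cd68; it also occurred 1 time in the window of Retnla, which was below background, and was not in those of Cd163 and Cd36. Of 32851 promoter windows of the same length 28.3% held it, so its presence in 4 of the 6 members that had a promoter is a description of these windows only. TGANTCA occurred 2 times in Cd68 and in 7.81% of all windows. TTCNNNNGAA, the spacing of STAT6 sites, occurred 1 time each in Retnla and Cd36 and in 6.95% of windows. TATAAA, the TATA box, occurred 1 time in Retnla and in 13.6% of windows. No 2 of these motifs overlapped in the printed sequences.

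Cd36, a class B scavenger receptor, binds oxidised low-density lipoprotein and long-chain fatty acids, and fat cells and capillary endothelium carry it as well as macrophages. The probe used in the fit over genes (mm7 chr5:16796301-16796360, - strand) gave 73.7, 102.6 and 80.7 units in pre-miR-16 cultures, against 133.9, 7.41 and 6.22 units in pre-miR-Control cultures. The groups overlapped, because pre-miR-Control replicate 1 was the highest array of all 6. This array also decided the choice of the brightest probe: the mean log2 level over 6 arrays was -4.19 at this probe and -4.69 at the other, but -4.59 and -4.46 without pre-miR-Control replicate 1. The change of 1.94 ± 1.19 was not called (SE, n = 3 per group, adjusted p 0.220 from limma, 95% interval -0.95 to 4.83). It was -1.11 within slide 1, which holds that array, and 3.79 within slide 2; without pre-miR-Control replicate 1 the change was 3.41 with an adjusted p of 4.27e-04.

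The other Cd36 probe (mm7 chr5:16796811-16799243, - strand) gave 99.6, 128.5 and 117.7 units in pre-miR-16 cultures and 11.0, 4.52 and 6.29 units in pre-miR-Control cultures. At this probe pre-miR-Control replicate 1 was below background like the other 2, so the 2 probes disagree on that array. The signal was at least 5.83-fold higher in pre-miR-16 cultures. The adjusted p of 4.57e-04 from limma in the fit over probes belongs to the full fitted difference and not to the bound. That difference rests on control signals below background. The mean of both probes gave 2.87 with an adjusted p of 0.0223, so whether Cd36 was called depended on the probe and on 1 array.

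**Figure D2:**
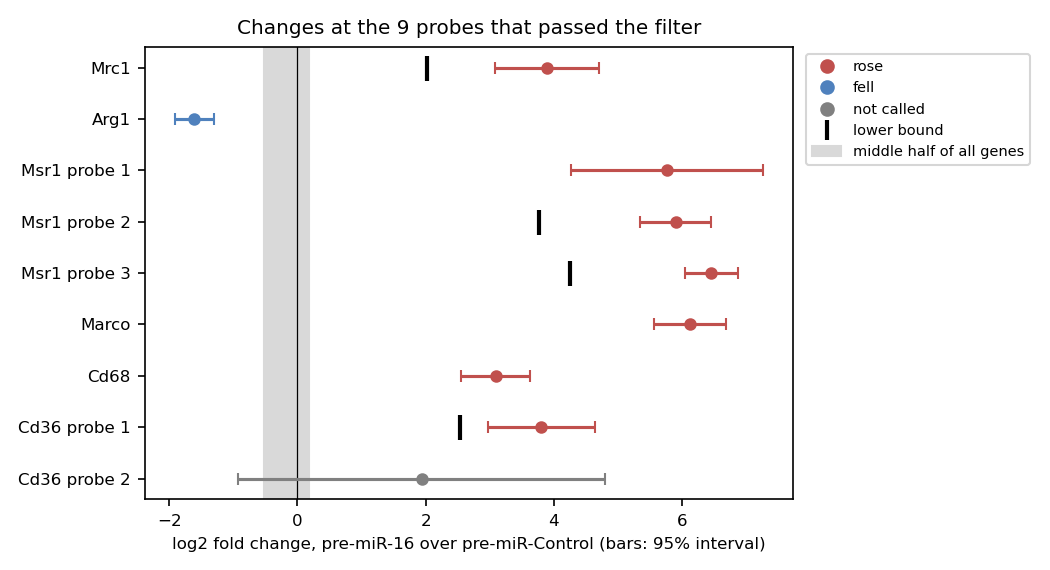
Log2 fold change of pre-miR-16 over pre-miR-Control cultures (horizontal axis) at the 9 probes that passed the filter, with 95% intervals from the fit over probes; black ticks mark the lower bound where no pre-miR-Control array was well above background, and the grey band is the interquartile range of all genes. Arg1 lies at -1.61, left of zero, and Cd36 probe 2, the one used in the fit over genes, is the only one whose interval, -0.92 to 4.80, holds zero.

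Arg1 encodes liver-type arginase, which splits arginine into ornithine and urea. It was the only one of the 6 tested genes that fell. Its probe gave 1191, 1223 and 1243 units in pre-miR-16 cultures, against 3283, 2989 and 2990 units in pre-miR-Control cultures. The groups did not overlap and every array was well above background, the pre-miR-Control arrays included, where Mrc1 was not. The change was -1.61 ± 0.12 (SE, n = 3 per group), 3.06-fold lower in pre-miR-16 cultures, with an adjusted p of 2.13e-04 from limma. It was -1.71 within slide 1 and -1.42 within slide 2, and it stayed between -1.68 and -1.18 over 21 processing alternatives, all called; the weakest came from scaling on the spike-in probes.

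Retnla encodes a small secreted protein that interleukin-4 induces strongly in mouse macrophages. Its 2 probes share a run of 50 bases and are close to 1 measurement. The first (mm7 chr16:48604517-48604576, + strand) gave 3.65, 6.19 and 6.91 units in pre-miR-16 cultures and 3.96, 4.50 and 4.07 units in pre-miR-Control cultures, none of them well above background. The second (mm7 chr16:48604507-48604566, + strand) gave 3.96, 4.90 and 7.61 units in pre-miR-16 cultures and 3.97, 4.83 and 4.55 units in pre-miR-Control cultures. Both probes overlapped between the groups and were below background on every array.

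Nos2 encodes the inducible nitric oxide synthase, which makes nitric oxide from arginine. Its probe was printed 10 times per array, and after outlier spots were left out the mean signals were 10.1, 8.93 and 17.9 units in pre-miR-16 cultures and 13.1, 11.6 and 8.36 units in pre-miR-Control cultures. Of the spots used, 0 were well above background on each pre-miR-16 array, and 2, 2 and 0 were on the pre-miR-Control arrays. In pre-miR-16 replicate 3, 1 spot that the scanner software marked as an outlier read 114 units, while the highest of the 9 others read 29.3. Nos2 was thus not detectable above background in either group, and its groups overlapped.

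The comparison of the alternatively with the classically activated arginine enzyme rests on the following probes, whose sequences are those of the array.
Arg1 probe (mm7 chr10:24669046-24669105, - strand): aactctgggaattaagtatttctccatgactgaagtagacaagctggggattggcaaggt
Nos2 probe (mm7 chr11:79041233-79041292, + strand): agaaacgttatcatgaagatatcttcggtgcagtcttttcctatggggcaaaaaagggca

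The log2 difference of Arg1 and Nos2 within an array, from which the scaling between arrays cancels, was 6.88, 7.10 and 6.12 in pre-miR-16 cultures, against 7.97, 8.005 and 8.48 in pre-miR-Control cultures. The mean was 6.70 ± 0.51 in pre-miR-16 cultures and 8.15 ± 0.29 in pre-miR-Control cultures (SD, n = 3 each), a difference of -1.45 with p = 0.10 in an exact two-sided permutation test, the smallest p that 3 against 3 arrays allow, so the test could not reach 0.05. It was -1.09 within slide 1 and -1.15 within slide 2. Since Nos2 was below background in both groups, these values are a description that says nothing of a change in Nos2 or in the balance of the 2 enzymes.

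**Figure D3:**
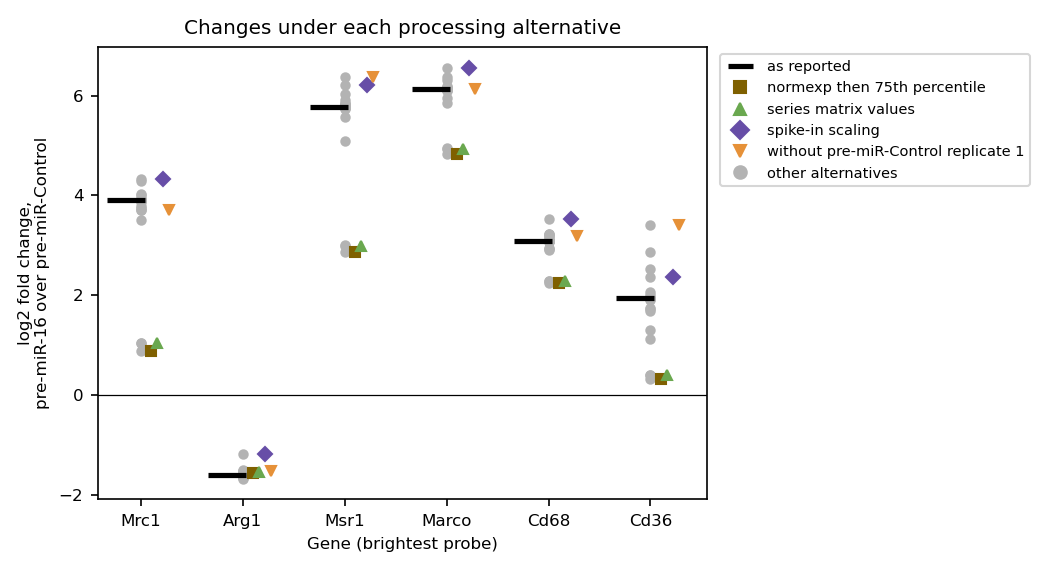
Log2 fold change of pre-miR-16 over pre-miR-Control cultures (vertical axis) for the 6 genes that passed the filter (horizontal axis), as reported and under each processing alternative. Arg1 stayed below zero throughout and Marco between 4.83 and 6.56, while after normexp correction Mrc1 lay at 0.89 and Cd36 at 0.33.

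Sorted by activation state, of the alternatively activated markers Mrc1 rose and Arg1 fell, Cd163 and Retnla were not measurable, and of the classically activated ones Marco rose and Nos2 was not measurable. Arg1 was well above background in the pre-miR-Control cultures, where Mrc1 was not, and which cells gave its signal was not tested. Of 30 further genes of alternative activation, 19 were tested, of which 11 rose, 3 fell and 5 were not called, with a median change of 1.00. Of 30 further genes of classical activation, 22 were tested, of which 13 rose, 2 fell and 7 were not called, with a median change of 1.10. Over all genes the median was -0.20 and 15.9% rose; the groups of genes were not tested against each other. The list medians moved with the filter, to 0.32 for the alternative and 0.74 for the classical list with no filter on dim probes, and to 1.00 and 0.68 with probes well above background on all 6 arrays, so their order is not settled. The counts that rose stayed within 1.5 times these values over 21 alternatives, whereas the few that fell in the alternative list (Il1r2, Folr2 and Klf4) dropped to 0 with spike-in scaling.

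Among alternative activation genes Gas6, a ligand of the Axl and Mertk receptors by which dying cells are engulfed, averaged 3.07 ± 0.22 in pre-miR-16 cultures and -1.26 ± 0.42 in pre-miR-Control cultures (log2, SD, n = 3 each), a rise of 4.32. Trem2, a lipid-sensing receptor of tissue macrophages, averaged 1.46 ± 0.31 in pre-miR-16 cultures and -2.98 ± 0.83 in pre-miR-Control cultures, a rise of 4.44. Ptgs1, the constitutive cyclooxygenase, rose by 3.86 ± 0.12 (SE), the chemokine gene Ccl17 by 1.80 ± 0.11 and the fibronectin gene Fn1 by 1.47 ± 0.13. The growth factor gene Igf1 was at least 6.97-fold higher in processed signal in pre-miR-16 cultures, and its change after normexp correction was 1.18 on the log2 scale, below that bound. Fn1, Igf1 and Gas6 are also fibroblast genes, and their cell of origin was not tested. Chil3, a chitinase-like marker of the alternative state, had a change of -0.61 ± 0.28 and was not called, and Clec10a, Mgl2, Ccl22, Ccl24 and Il10 did not pass the filter.

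Among classical activation genes Il1b, which encodes an inflammatory cytokine, averaged 0.71 ± 0.45 in pre-miR-16 cultures and -4.13 ± 0.51 in pre-miR-Control cultures (log2, SD, n = 3 each), a rise of 4.84. Il6, another cytokine gene, rose by 4.33 ± 0.18 (SE), Fpr2, a formyl peptide receptor, by 4.02 ± 0.41, and Cd40, a co-stimulatory receptor, by 3.81 ± 0.31. The chemokine gene Ccl5 rose by 2.30 ± 0.20, and Cxcl9, a chemokine gene induced by interferon-gamma, was at least 5.59-fold higher in processed signal in pre-miR-16 cultures. Normexp correction lowered these changes, to 1.19 for Cxcl9, below its bound, and to 2.39 for Il6, 1.89 for Fpr2 and 2.20 for Cd40. Tnf was not called, with a change of 0.07 ± 0.25. Il12a, Il12b, Ifng, Cd86 and Ccr7 did not pass the filter.

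Arginine is made, carried and used by further enzymes and transporters. Of 18 genes on the list 16 were tested, of which 9 rose, 3 fell and 4 were not called, with a median change of 0.73 that was 0.39 after normexp correction and 1.16 with spike-in scaling. Ass1, which joins citrulline to aspartate on the way back to arginine, averaged 3.32 ± 0.07 in pre-miR-16 cultures and -0.93 ± 0.08 in pre-miR-Control cultures (log2, SD, n = 3 each), a rise of 4.25 ± 0.09 (SE, adjusted p 1.14e-05 from limma). Asl, the next enzyme of that path, had a change of -0.18 ± 0.11 and was not called. Arg2, the mitochondrial arginase, gave log2 levels of 0.55, -1.38 and 0.55 in pre-miR-16 cultures, against -1.66, -1.89 and -1.75 in pre-miR-Control cultures. The groups did not overlap, yet pre-miR-16 replicate 2 lay close to the controls, and the change of 1.67 ± 0.52 (adjusted p 0.0392 from limma) lost its call under 7 of 21 alternatives.

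Ddah1 and Ddah2, assigned to the breakdown of methylated arginines that inhibit nitric oxide synthases, rose by 3.39 ± 0.35 and 1.11 ± 0.09 (SE, n = 3 per group). Gch1, the entry enzyme to the synthase cofactor tetrahydrobiopterin, rose by 1.44 ± 0.11. Of the cationic amino acid transporters Slc7a3 rose by 2.23 ± 0.10, Slc7a2 had a change of 0.88 ± 0.56 that was not called, and Slc7a1 rose by 0.58 ± 0.10 but had a change of -0.0035 after normexp correction. Nos3, the endothelial synthase, was at least 1.52-fold lower in pre-miR-16 cultures, where it was below background, a call that 4 alternatives ended. Nos1 did not pass the filter.

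Other scavenger receptors were measured too. Of 20 genes 16 were tested, of which 9 rose, 2 fell and 5 were not called. Their median change was 2.00, which becomes 1.61 with genes below background in the controls set to their bound and 0.45 after normexp correction. Olr1, a receptor for oxidised low-density lipoprotein, was at least 17.0-fold higher in processed signal in pre-miR-16 cultures, and Megf10, a receptor for dying cells, at least 2.50-fold higher. After normexp correction their log2 changes were 2.27 and 0.51, both below these bounds. Colec12, a collectin of the class A family, rose by 3.25 ± 0.26 (SE, n = 3 per group), the Gas6 receptor Axl by 2.43 ± 0.14, the large endocytic receptor Lrp1 by 2.25 ± 0.22 and the class F receptor Scarf1 by 1.89 ± 0.16. Normexp correction gave 1.77 for Colec12 and 0.76 for Scarf1.

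**Figure D4:**
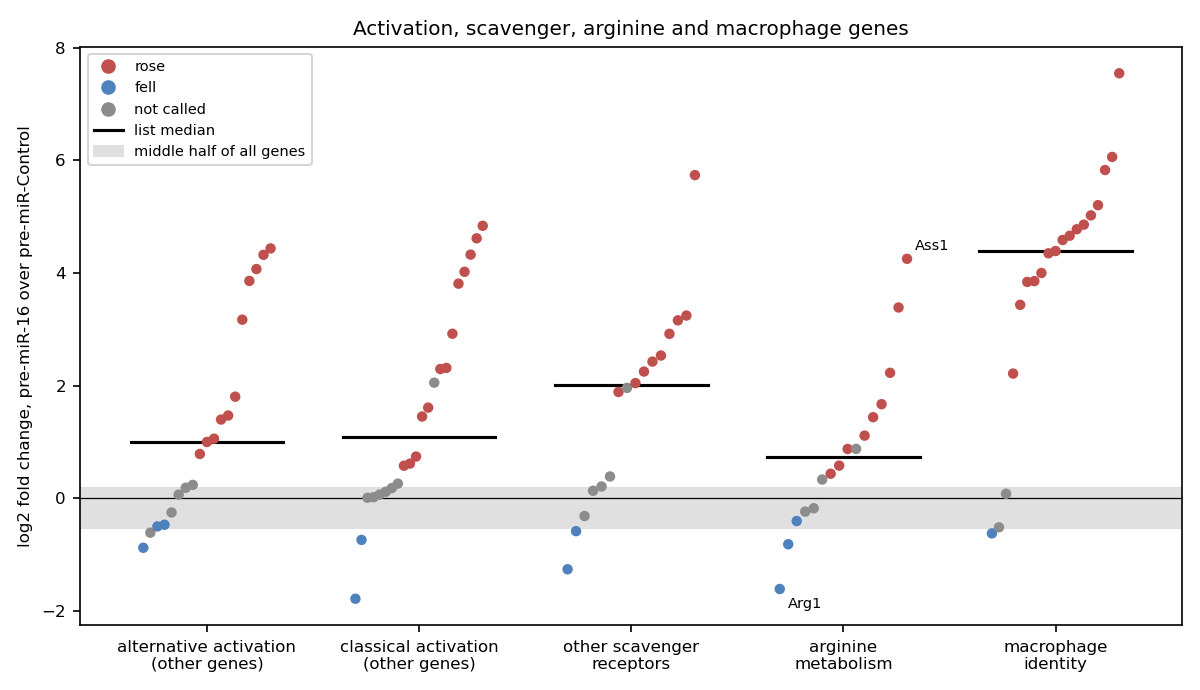
Log2 fold change of pre-miR-16 over pre-miR-Control cultures (vertical axis) for each tested gene of 5 lists (horizontal axis), coloured by call, with the list median as a bar and the interquartile range of all genes, -0.52 to 0.18, in grey. The medians of the alternative and classical lists are 1.00 and 1.10, and Arg1 is the lowest and Ass1 the highest of the arginine genes.

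Markers of macrophages in general moved with these genes. Of 20 macrophage genes 19 were tested, of which 16 rose, 1 fell and 2 were not called, with a median change of 4.39 that becomes 3.60 with bounds and 1.61 after normexp correction. Adgre1, a surface receptor that marks mature mouse macrophages, averaged 2.77 ± 0.23 in pre-miR-16 cultures and -4.78 ± 0.71 in pre-miR-Control cultures (log2, SD, n = 3 each), a rise of 7.55. C1qa and C1qc, complement subunits made by macrophages, rose by 5.83 ± 0.41 and 6.06 ± 0.39 (SE). At Adgre1, C1qa and C1qc only 2 of the 3 pre-miR-Control arrays were well above background. Normexp correction gave 5.70 for Adgre1, 4.07 for C1qa and 4.14 for C1qc. Mpeg1 rose by 5.02 ± 0.32 and Fcer1g by 4.001 ± 0.23 (SE). Ptprc, the leukocyte marker CD45, was at least 12.1-fold higher in processed signal in pre-miR-16 cultures. Its log2 change was 1.81 after normexp correction, below that bound. Csf1r, the receptor of the macrophage growth factor, and Aif1 were not called, with changes of -0.52 ± 0.26 and 0.08 ± 0.24, and Lgals3 fell by 0.62 ± 0.15, a fall that 6 of 21 alternatives ended, among them spike-in scaling and leaving out pre-miR-Control replicate 2 or pre-miR-Control replicate 3. Spi1, which encodes PU.1, did not pass the filter.

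The order of the arrays within each group was compared as well, and its share over all genes tested was not counted. Pre-miR-16 replicate 2 was the highest pre-miR-16 array at all 9 probes of these genes that passed the filter, Arg1 included, and at all 19 tested macrophage genes. Pre-miR-16 replicate 3 was the lowest at 8 of the 9 probes and at 13 of the 19 genes, and pre-miR-Control replicate 3 was the lowest control at 7 and at 16. Of the 9 probes 3 belong to Msr1. A highest level in pre-miR-16 replicate 2 was not particular to macrophage genes. Among the pre-miR-16 arrays the fibroblast genes Col1a1 and Col1a2 and the luminal gene Gata3 were also highest there. Krt8, Krt18 and S100a8 were lowest there. The cause of this order was not tested. Control signals at Mrc1, Msr1 and Cd36 were mostly below background, where their order says little. At Mrc1 pre-miR-Control replicates 1 and 3 read -7.593 and -7.599 (log2). The summed signal of the tested macrophage genes, in multiples of the 75th percentile, was 243 to 317 in pre-miR-16 cultures and 84.5 to 88.3 in pre-miR-Control cultures. A pair of genes made up most of it: Lyz2, the lysozyme of myeloid cells, gave 69.6% to 74.5% of the sum in pre-miR-16 cultures, and Lgals3, which fell, gave 82.8% to 88.8% in pre-miR-Control cultures. The other 17 genes summed to 24.7 to 35.99 in pre-miR-16 cultures and 5.19 to 6.05 in pre-miR-Control cultures.

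Lists of other cells did not all move alike. Of 14 fibroblast genes 12 rose and 2 were not called, with a median change of 3.87 and a summed signal of 624 to 783 in pre-miR-16 cultures against 400 to 468 in pre-miR-Control cultures. Dcn, which encodes decorin and was not called (-0.07), made up 51.3% to 57.5% of the sum in pre-miR-16 cultures and 94.3% to 94.8% in pre-miR-Control cultures; the other 13 genes summed to 287 to 381 in pre-miR-16 cultures and 23.0 to 24.3 in pre-miR-Control cultures. Of 14 luminal epithelial genes 12 fell and 2 were not called, with a median change of -0.66 and a summed signal of 615 to 653 in pre-miR-16 cultures against 1060 to 1201 in pre-miR-Control cultures. With spike-in scaling 3 of the 14 luminal genes fell and their median change was -0.22, whereas 13 of the 14 fibroblast genes rose. Of 12 neutrophil genes 4 were tested and 3 rose, with sums of 1.78 to 16.3 in pre-miR-16 cultures and 0.477 to 0.623 in pre-miR-Control cultures. S100a9 did not pass the filter and Ly6g had no probe of that name. Most of the highest sum was S100a8, whose log2 levels were 3.49, -0.35 and 3.95 in pre-miR-16 cultures, against -2.15, -1.80 and -1.75 in pre-miR-Control cultures. Mmp8 rose by 4.70 ± 0.82 (SE, adjusted p 0.0051 from limma), with 2 pre-miR-Control arrays well above background. It kept its call under the 20 alternatives in which it was tested, and its change was 2.37 after normexp correction. S100a8 and Ltf each lost their call under 7 of 21 alternatives, among them the slide block. For S100a8 leaving out any array but pre-miR-16 replicate 2 ended the call, and for Ltf leaving out any pre-miR-16 array or pre-miR-Control replicate 1 did. Of 12 lymphocyte genes 3 were tested and 1 rose (sums of 0.187 to 0.229 in pre-miR-16 cultures against 0.151 to 0.187 in pre-miR-Control cultures). For endothelium 5 of 12 genes were tested, 1 rose and 1 fell (sums of 11.0 to 20.6 in pre-miR-16 cultures against 15.5 to 18.04 in pre-miR-Control cultures), mostly from Vwf (90.8% to 95.8% in pre-miR-16 cultures and 92.7% to 94.7% in pre-miR-Control cultures), and Pecam1, Cdh5, Kdr and Tek did not pass the filter. For fat cells 6 of 10 were tested, 1 rose and 1 fell (sums of 12.1 to 31.8 in pre-miR-16 cultures against 13.3 to 15.7 in pre-miR-Control cultures). Pnpla2, a triglyceride lipase gene, gave 45.7% to 82.6% of the sum in pre-miR-16 cultures and 91.7% to 94.8% in pre-miR-Control cultures, and Adipoq and Plin1 did not pass the filter. The part of these cell types in the changes of the 9 genes was not tested.

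Genes with the most similar pattern were sought for Marco, Msr1 and Mrc1, the called members with the largest fitted changes. The measure was the root mean square difference of log2 levels over the 6 arrays, each gene centred on its pre-miR-Control mean. For Marco they were Ms4a6b (0.198) and Ms4a7 (0.239), of the membrane-spanning 4A family, and Abca1 (0.304), a cholesterol efflux transporter. For Msr1 they were Fpr1 (0.162), a formyl peptide receptor, Coro1a (0.209), an actin-binding protein of leukocytes, and Ms4a11 (0.276). The measure weighs all 6 arrays alike. At Msr1 only 1 pre-miR-Control array was well above background, so its likeness rests in part on control signals below background. Mrc1 came next by its fitted change of 3.90, and its most similar genes were Gng8 (0.191), the transcript AK138790 (0.198) and Sv2b (0.219). The pre-miR-Control arrays of Mrc1 were all below background, so its likeness rests on control signals that were not measurable. Its bound was 2.01 and its change after normexp correction was 0.89. For Cd68 the fitted change was 3.09 and that after normexp correction 2.24.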

How the data were processed

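Total RNA of 6 cultures, 3 with pre-miR-16 and 3 with pre-miR-Control, was labelled with Cy3 and measured on 1 array each. Per the file headers, the deposited processed intensity values were background-subtracted and detrended within the array by Agilent Feature Extraction 9.5.3.1, with replacement values for dim spots, and probe positions are on mm7. The deposited log2 series matrix, whose normalization no label states, served as an alternative; in it the first and second pre-miR-16 columns match each other's scanner values, which leaves group comparisons unaffected.

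The analysis used limma 3.58.1 and data.table (version 1.17.8) under R 4.3.3. Control and outlier spots (74 to 113 outliers per array) were dropped, the log2 values of a probe's spots were averaged, and levels were expressed relative to the array's 75th percentile. The filter on dim probes required a share of 0.50 of the spots above background on each of the 3 arrays of either group and a value on all 6 arrays (4 probes lacked one), and passed 23827 probes. Names came from RefSeq accessions (22951 probes), current symbols (6659) or the file (11564). The brightest probe of each of 16702 genes was tested with lmFit and eBayes, adjusted by Benjamini and Hochberg. The p-values measure the spread among these biological replicates, and the number of arrays limits the precision. Data were also simulated for this comparison of 16702 genes, of which 200 were changed. There the fit recovered 10%, 54%, 86% and 100% of genes changed by 0.5, 1, 2 and 4 on the log2 scale. It called 0.0182% of unchanged genes. In the measured data 49.1% of genes were called, so these rates need not hold for them.

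Arrays with the same number in the scanner files did not deviate together (correlations of -0.0876, -0.0261 and -0.00284), so numbers were not taken as pairs. The series matrix exchanges pre-miR-16 replicates 1 and 2. In that order the correlations were 0.0634 with pre-miR-Control replicate 1 and 0.0222 with pre-miR-Control replicate 2. Which numbers are right is not known, so the check cannot exclude pairs. Slide 1 held pre-miR-16 replicate 1 and pre-miR-Control replicate 1, slide 2 held pre-miR-16 replicate 2 and pre-miR-Control replicates 2 and 3, and slide 3 held pre-miR-16 replicate 3. Lower bounds of a fold use, for the dim group, the higher of the probe's own signal and the lowest signal well above background on each array. Motifs were searched on both strands of RefSeq promoters, which matched 6 of the 9 genes (Mrc1, Cd163, Retnla, Marco, Cd68 and Cd36).

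The genes examined singly are all 9 members, up to 6 called genes with the smallest p per list, and 7 genes that use, make or carry arginine. Some of them, from the lists of fibroblasts and other cells, are not named above. The 3 most similar genes are given for the called members with the largest fitted changes (Marco, Msr1 and Mrc1, whose controls were below background). Il1r2, Folr2, Klf4, Chil3, Tnf, Csf1r, Aif1, Lgals3, Lyz2, Dcn, Vwf and Pnpla2 were added after their values were seen. So were genes named as not passing the filter. The members, the lists and the alternatives were chosen with earlier results of these data known. Alternatives were other scalings, background correction, filters, probe averaging, limma settings, blocks and leaving out each array.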

Additional observations from a re-analysis of the deposited data

How the results depend on the processing

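Over the 21 alternatives the calls of Arg1, Marco and Cd68 held, as did those of Mrc1 and Msr1 over the 20 in which these genes were tested; Cd36 gained a call under 2 of 20, and each of these results kept its direction. With only probes well above background on all 6 arrays, 2 of the 9 genes rose, Marco and Cd68 (Mrc1 and Msr1 were then not tested), and 4 macrophage genes rose of 7 tested. Counts of genes that fell were small and moved. For the alternative list (3 as reported) they were 0 with spike-in scaling, 1 with no filter, 1 with the replicate block, 1 with the slide block, and 1 to 3 when arrays were left out, with 1 without pre-miR-16 replicate 1 or pre-miR-Control replicate 1 or 3. For the classical list (2) they were 0 with no filter, 1 with quantile normalization, spike-in scaling, normexp with quantile normalization, probes above background on all 6 arrays, the mean of a gene's probes or the slide block, and 0 to 2 when arrays were left out, with fewer than 2 in all but the set without pre-miR-16 replicate 2. For other scavenger receptors (2) they were 1 with quantile normalization or spike-in scaling, 0 with the slide block, and 1 to 3 when arrays were left out, with 1 without pre-miR-16 replicate 1 or pre-miR-Control replicate 2 or 3. For arginine metabolism (3) the count was 1 with spike-in scaling. For macrophage genes (1) it was 0 with quantile normalization, spike-in scaling, normexp with quantile normalization or no filter, 2 with array weights, and 0 to 2 when arrays were left out, with 0 without pre-miR-Control replicate 2 or 3 and 2 without pre-miR-16 replicate 2. Slc7a1 turned to -0.0035 with normexp and the 75th percentile.

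For the difference of Arg1 and Nos2 no test could reach 0.05. With the replicate block it was -1.45 with an exact sign-flip p of 0.25, though the numbers were not taken as pairs. Each of these 2 genes has 1 probe, so averaging probes gave no other value. Of the 60 genes examined singly, not all of them named above, 12 lost their call under some alternative. Of the same genes 22 moved by over 1.5 times with normexp correction. Its offset of 50 shrinks differences at dim probes. It also starts from the mean spot signal and local background in place of the processed signal, and these parts were not separated. Signals below background limit Mrc1, Msr1 and Cd36 in the controls and Cd163, Retnla and Nos2 throughout. The cause of the moves between alternatives was not tested.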
